A study of Homo sapiens with 6 samples.

Results

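The 10 genes followed here were those of the 6 type IV collagen chains (COL4A1 to COL4A6), of type XV and type XVIII collagen (COL15A1 and COL18A1) and of the 2 nidogens (NID1 and NID2). They were taken by gene symbol, and all 10 of them had a row among the 19974 annotated genes of the deposited table. RNA had been sequenced from LX-2, an established cell line derived from human liver stellate cells and kept growing by immortalisation. Libraries came either from cells given 50 nM of an siRNA against AEBP1 for 48 hours, labelled as an AEBP1 knockdown, or from cells given 50 nM of a scrambled siRNA for 48 hours, labelled as wild type. There were 3 libraries in each arm, all lipid-transfected, and all from this line, so that they speak for LX-2 alone.

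Basement membranes are thin sheets of matrix that lie beneath epithelia and around vessels, muscle and fat. Type IV collagen chains wind into triple helices that join at their ends into a network, and nidogens, also called entactins, bind that network as well as laminin. Collagens XV and XVIII lie in or next to basement membranes and carry heparan or chondroitin sulfate chains. In healthy liver the space between hepatocytes and sinusoids holds only a sparse and loose basement membrane matrix, of which stellate cells are a source, and a denser one is laid down in fibrosis. The AEBP1 product of the matrix binds fibrillar collagen, and a shorter product has been reported to repress transcription.

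Total counts were 34433510 to 41600600 in the 3 AEBP1 siRNA libraries and 41330380 to 49432960 in the 3 scrambled libraries. AEBP1 itself did not follow the labels. It was at 29.7, 27.7 and 48.3 CPM (counts per 1000000, scaled) in the libraries labelled AEBP1 siRNA 1, 2 and 3, against 53.6, 48.7 and 25.1 CPM in those labelled scrambled 1, 2 and 3. Both libraries numbered 3 thus went against their labels, and every direction below is that of the libraries as labelled. The library labelled AEBP1 siRNA 1 stood apart as well, with a score of -65.9 on the first principal component, where the others scored 5.74 to 17.3. For most of the 10 genes and for the companion lists, estimates without AEBP1 siRNA 1 or without replicate 3 of both arms are given as well. Replicate 3 was left out for its AEBP1 level, so that estimates without it are a description. Of the stellate cell markers, COL1A1 was at 1410 to 1620 CPM and LHX2 at 44.5 to 60.2 CPM. VIM was at 953 to 1290 CPM, PDGFRB at 28.9 to 36.9 CPM and COL3A1 at 19.5 to 36.5 CPM. ACTA2 was at 3.2 to 5.72 CPM, and HAND2, RELN, GFAP and DES reached at most 1.56, 0.654, 0.388 and 0.183 CPM. LRAT was at 0 counts in all 6 libraries. Of the epithelial markers, KRT18, KRT8, KRT7 and CLDN4 reached at most 220, 39.2, 20.2 and 4.38 CPM. EPCAM, CDH1 and KRT19 reached at most 0.121, 0.144 and 0.073 CPM. Endothelial cells are rich in type IV collagen, and the summed level of 3 tested endothelial markers of 8 was 1.21 to 1.89 CPM in the AEBP1 siRNA libraries and 1.61 to 2.34 CPM in the scrambled libraries, and PECAM1, VWF and CDH5 reached at most 0.268, 0.412 and 0.106 CPM.

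COL4A2 was by far the most abundant of the 10 genes. On the per-length scale of the deposited FPKM (fragments per kilobase of transcript and 1000000 fragments), COL4A2 averaged 117 FPKM ± 9.06 in the AEBP1 siRNA libraries and 127 FPKM ± 7.15 in the scrambled libraries (SD, n = 3 each), and its mean ranked 410 among the 19974 annotated genes. NID1, COL4A1 and COL18A1 followed at means over the 6 libraries of 27.4, 23.7 and 21.2 FPKM. Their ranges of 20.3 to 30.6, 20.0 to 28.9 and 19.5 to 23.0 FPKM overlapped, so these 3 neighbours were not told apart by level. NID2 came next at 1.7 to 3.15 FPKM and COL4A5 at 0.702 to 1.39 FPKM, without overlap between them. COL4A4 lay at 0.137 to 0.453 FPKM and COL4A3 at 0.0386 to 0.242 FPKM, and the lowest were COL15A1 and COL4A6 with at most 0.115 and 0.0715 FPKM. All 10 genes together took 0.121% to 0.145% of the counts of a library.

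**Figure D1:**
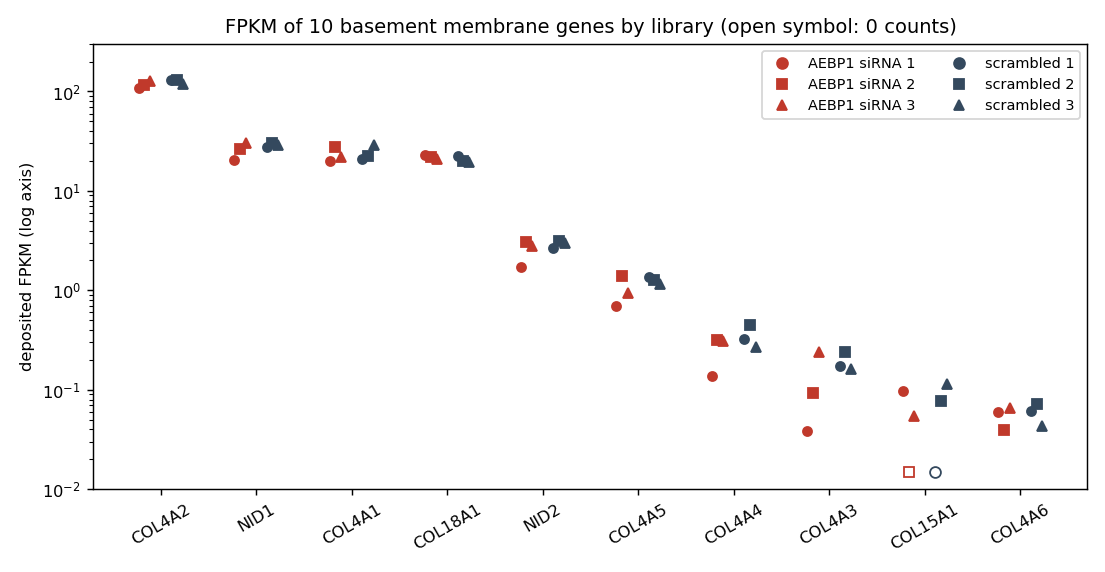
Deposited FPKM of the 10 genes on a log axis, ordered by mean, with 1 point per library, AEBP1 siRNA in red left of scrambled siRNA in dark, and open symbols for 0 counts. COL4A2 sits at 109 to 131 FPKM above all others, NID1, COL4A1 and COL18A1 share a band near 20 to 31 FPKM, and COL15A1 is at 0 in AEBP1 siRNA 2 and scrambled 1.

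None of the 10 genes passed the threshold between the labelled arms. In edgeR's quasi-likelihood test over 16250 genes, 0 of the 10 had an adjusted p under 0.05, beside 0.00615% of all genes tested, and 0 of the 10 had an unadjusted p under 0.05, beside 1.33% of all genes. DESeq2 and limma-voom also called 0 of the 10, beside 0.0369% and 0.0123% of all genes. The levels of the arms overlapped for all 10, while they did not overlap for 5.93% of all genes. Of the 10 estimates 9 were below 0 and that of COL18A1 was above it, beside 8219 below 0 and 8031 above it over all 16250 genes. The median log2 fold change of the 10 was -0.194, beside -0.002 over all genes tested. This background holds genes of all transcript lengths, and level followed transcript length in AEBP1 siRNA 1, as given below. Bulk RNA of this kind would not tell apart a change in the number of cells making a transcript from a change in its amount per cell. By edgeR, each of the 10 had an adjusted p of 0.991.

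COL4A1 and COL4A2 encode the chains of the type IV collagen found in nearly every basement membrane, whose triple helix holds more of the COL4A1 chain than of the COL4A2 chain. COL4A1 (ENSG00000187498) was at 139, 190 and 155 CPM in AEBP1 siRNA 1, 2 and 3, against 144, 157 and 205 CPM in scrambled 1, 2 and 3. The highest values were thus those of scrambled 3 and AEBP1 siRNA 2, which lie in opposite arms. The log2 fold change was -0.06, with an SE of 0.165 and 95% bounds of -0.44 and 0.32 (edgeR adjusted p = 0.991). COL4A2 (ENSG00000134871) was at 775, 805 and 924 CPM in AEBP1 siRNA 1, 2 and 3, against 953, 941 and 853 CPM in scrambled 1, 2 and 3. Here AEBP1 siRNA 1, AEBP1 siRNA 2 and scrambled 3 were the lowest, and AEBP1 was lowest in the same 3 libraries; no test was made of this, since it would group libraries by a measured level. For COL4A2 the log2 fold change was -0.13, with an SE of 0.105 and 95% bounds of -0.37 and 0.11 (edgeR adjusted p = 0.991). Without AEBP1 siRNA 1 the estimates were 0.0312 for COL4A1 and -0.0831 for COL4A2, and without replicate 3 of both arms they were 0.129 and -0.261, all with adjusted p-values of at least 0.967.

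These 2 genes lie head to head on chromosome 13 and are transcribed away from each other from starts 127 bases apart, so that a single stretch of DNA serves as promoter for both. The window of COL4A2 in RefSeq (250 bases before the start and 50 from it on, GRCh38.p14, chr13:110307034-110307333, plus strand) is shown because it holds both starts. Capitals mark the bases between the start of COL4A1, which runs to the left, and that of COL4A2, which runs to the right.
COL4A2 promoter: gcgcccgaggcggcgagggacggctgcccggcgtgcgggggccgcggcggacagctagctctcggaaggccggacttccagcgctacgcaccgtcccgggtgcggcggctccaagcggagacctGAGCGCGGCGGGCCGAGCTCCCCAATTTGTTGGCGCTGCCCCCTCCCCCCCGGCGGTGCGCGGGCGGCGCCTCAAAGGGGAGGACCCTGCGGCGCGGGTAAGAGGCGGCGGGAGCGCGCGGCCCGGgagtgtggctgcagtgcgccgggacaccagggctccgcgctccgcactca
The 126 capitals are 80.2% G or C. The whole window of 300 bases is 77.7% G or C, where the median window of all 35116 promoter windows has 58.7%. On either strand they hold 1 CCAAT box (letters CCAAT), which NF-Y binds, and 1 GC box (letters GGGCGG), which Sp1 and its relatives bind. No TATA box (letters TATAAA) lies in the window. The whole window holds no further CCAAT box or GC box. Of all windows, which have that full length, 34.6% hold a CCAAT box, 45.0% a GC box and 11.5% a TATA box. The CCAAT box and the GC box do not overlap here.

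The levels of the 2 transcripts were far from equal, and the share of COL4A1 was highest in 1 library of each arm. COL4A1 made up 15.2%, 19.1% and 14.4% of the pair's counts in AEBP1 siRNA 1, 2 and 3, against 13.1%, 14.3% and 19.4% in scrambled 1, 2 and 3. The exact 95% binomial intervals, which cover counting error only, were 18.7% to 19.5% in AEBP1 siRNA 2 and 19% to 19.8% in scrambled 3, and the 4 other libraries lay between 12.8% and 15.6% with theirs. These intervals hold no spread between cultures. The means were 16.2% ± 2.51 for AEBP1 siRNA and 15.6% ± 3.35 for scrambled siRNA (SD, n = 3 each). The log2 ratio of COL4A2 to COL4A1 counts differed by -0.076 between the arms, AEBP1 siRNA minus scrambled siRNA, and no test was made of it. That difference was -0.126 without AEBP1 siRNA 1, 0.071 without AEBP1 siRNA 2, 0.059 without scrambled 1, -0.276 without scrambled 3 and -0.374 without replicate 3 of both arms, so that its direction depended on the libraries kept. Per length, COL4A2 was 4.13 to 5.80 times COL4A1 by FPKM in the AEBP1 siRNA libraries and 4.10 to 6.26 times in the scrambled libraries. COL4A1 also varied more over the 6 libraries than its partner. Its SD on the log2 CPM scale was 0.224, above that of 74.4% of the genes that averaged 5 CPM or more, while that of COL4A2 was 0.125, above 33.3% of them.

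**Figure D2:**
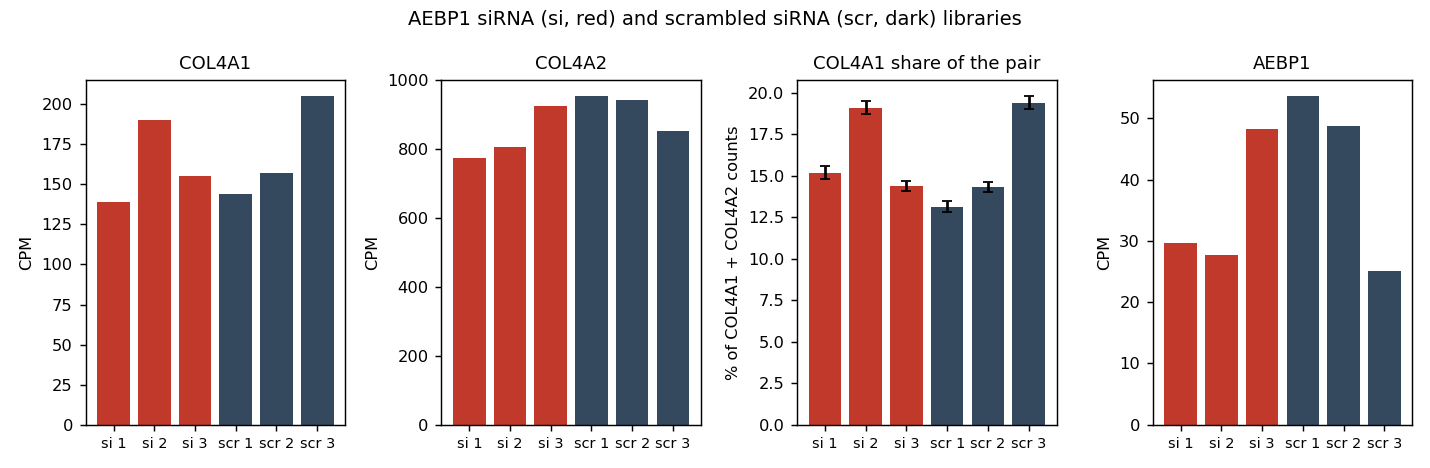
COL4A1 and COL4A2 in CPM, the share of COL4A1 in the counts of both with exact 95% binomial intervals, and AEBP1 in CPM, with 1 bar per library, AEBP1 siRNA (si) left of scrambled siRNA (scr). The COL4A1 share is 19.1% in AEBP1 siRNA 2 and 19.4% in scrambled 3, the libraries with the lowest AEBP1 (27.7 and 25.1 CPM), and 15.2% or less in the others, of which AEBP1 siRNA 1 has an AEBP1 of 29.7 CPM.

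COL4A3, COL4A4 and COL4A5 form the type IV collagen of the glomerular basement membrane, and mutations in them cause Alport syndrome, a kidney disease. They were scarce in LX-2 cells, and with COL4A6 they made up 0.724% to 1.28% of the summed FPKM of all 6 chains in the AEBP1 siRNA libraries and 1.09% to 1.30% in the scrambled libraries. COL4A5 (ENSG00000188153), the most abundant of these, was at 4.98, 9.84 and 6.85 CPM in AEBP1 siRNA 1, 2 and 3, against 9.81, 9.16 and 8.21 CPM in scrambled 1, 2 and 3. AEBP1 siRNA 2 was the highest of the 6 libraries and AEBP1 siRNA 1 the lowest, so that the AEBP1 siRNA arm spanned the scrambled arm. Its log2 fold change was -0.33, with an SE of 0.242 and 95% bounds of -0.88 and 0.23 (edgeR adjusted p = 0.991) and -0.12 without AEBP1 siRNA 1. Without AEBP1 siRNA 2 it was -0.614 with an unadjusted p of 0.0198 and an edgeR adjusted p of 0.856, in a fit where 1.8% of all genes had an unadjusted p under 0.05.

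COL4A4 (ENSG00000081052) had 53, 135 and 147 counts in AEBP1 siRNA 1, 2 and 3, against 151, 236 and 129 counts in scrambled 1, 2 and 3. Scaled to library size the lowest value, 1.52 CPM, was that of AEBP1 siRNA 1, and the 5 other libraries lay between 2.94 and 4.79 CPM. The log2 fold change was -0.39 with an SE of 0.345 (edgeR adjusted p = 0.991), and it was -0.0913 without AEBP1 siRNA 1 and -0.726 without replicate 3 of both arms. COL4A3 (ENSG00000169031) had 13, 22 and 23 counts in AEBP1 siRNA 1, 2 and 3, against 20, 38 and 31 counts in scrambled 1, 2 and 3. Its estimate of -0.37 had a 95% interval of -1.33 to 0.58, which at so few counts leaves the direction unknown. Without AEBP1 siRNA 1 the estimate was -0.201. Its deposited FPKM did not move with its counts: 23 counts in AEBP1 siRNA 3 gave 0.242 FPKM, and 22 counts in AEBP1 siRNA 2 gave 0.0928 FPKM. The transcript length implied by counts and FPKM ran from 2.29 to 9.77 kb between libraries for COL4A3, a ratio of 4.27, while for the other 9 genes the ratio was at most 1.08. COL4A3 levels per length are therefore uncertain, and the comparison rests on its counts.

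COL4A6 encodes the chain that joins COL4A5 in the basement membranes of skin and smooth muscle. COL4A6 (ENSG00000197565) had 16, 12 and 21 counts in AEBP1 siRNA 1, 2 and 3, against 20, 28 and 15 counts in scrambled 1, 2 and 3. The arms overlapped throughout, and the log2 fold change was -0.12, with 95% bounds of -1.15 and 0.92, and -0.439 without replicate 3 of both arms. COL4A5 and COL4A6 also lie head to head, on the X chromosome, where RefSeq lists 2 windows for COL4A6, with starts 380 and 1416 bases from that of COL4A5. The COL4A5 window (GRCh38.p14, chrX:108439588-108439887, plus strand) is shown to set this pair beside that of COL4A1 and COL4A2, and capitals mark the 121 bases it shares with the nearer window of COL4A6; with the other it shares 0 bases.
COL4A5 promoter: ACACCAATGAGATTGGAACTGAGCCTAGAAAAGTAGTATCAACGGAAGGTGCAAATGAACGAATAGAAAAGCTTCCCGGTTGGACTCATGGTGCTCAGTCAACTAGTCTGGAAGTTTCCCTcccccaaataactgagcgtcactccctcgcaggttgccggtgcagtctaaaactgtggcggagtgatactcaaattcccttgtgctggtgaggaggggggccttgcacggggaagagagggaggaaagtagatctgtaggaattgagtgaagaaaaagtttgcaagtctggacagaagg
This window is 49.3% G or C with 8 CpG, where that of COL4A2 is 77.7% with 45 CpG. The shared bases hold 2 CCAAT boxes on opposite strands, 0 GC boxes and 0 TATA boxes. COL4A6 made up 3.14% to 8.47% of this pair's counts in the AEBP1 siRNA libraries and 4% to 5.85% in the scrambled libraries, from 12 to 28 counts each. COL4A3 and COL4A4, the third pair in this arrangement, have starts 419 bases apart in the same table, and COL4A3 made up 13.5% to 19.7% of their counts in the AEBP1 siRNA libraries and 11.7% to 19.4% in the scrambled libraries.

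Type XV and type XVIII collagen are close relatives whose C-terminal fragments, restin and endostatin, inhibit the growth of vessels when released. COL18A1 (ENSG00000182871) was at 138, 128 and 126 CPM in AEBP1 siRNA 1, 2 and 3, against 137, 121 and 117 CPM in scrambled 1, 2 and 3. It was the steadiest of the 9 genes that had counts in every library, with an SD of 0.0932 on the log2 CPM scale, and the only 1 of the 10 with an estimate above 0. The log2 fold change was 0.07, with an SE of 0.099 and 95% bounds of -0.16 and 0.29 (edgeR adjusted p = 0.991). Without AEBP1 siRNA 1 it was 0.0273, and without replicate 3 of both arms 0.0486. RefSeq lists 2 promoter windows for it on chromosome 21, which start transcripts of different length, and the counts do not separate these. The first is 86.7% G or C and holds 9 GC boxes over both strands, and the second is 66.3% G or C and holds 1 GC box.

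COL15A1 (ENSG00000204291) had 21, 0 and 15 counts in AEBP1 siRNA 1, 2 and 3, against 0, 24 and 32 counts in scrambled 1, 2 and 3. Each arm thus held a library with no count beside libraries with at least 15. A count of 0 allows up to 3 counts, or 0.0799 and 0.0726 CPM of the totals of AEBP1 siRNA 2 and scrambled 1, where the 4 other libraries had 0.363 to 0.730 CPM. Its biological coefficient of variation, the spread edgeR estimates beyond counting error, was 115%, where those of the other 9 genes were 10.5% to 31.4%. The log2 fold change of -0.35 had a 95% interval of -3.20 to 2.51 and gave no direction.

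NID1 and NID2 encode the nidogens, and of the 2 NID1 is the more widespread. NID1 (ENSG00000116962) was at 132, 174 and 202 CPM in AEBP1 siRNA 1, 2 and 3, against 186, 202 and 189 CPM in scrambled 1, 2 and 3. AEBP1 siRNA 1 was the lowest and AEBP1 siRNA 3 equalled the highest scrambled library at this rounding. The log2 fold change was -0.19, with an SE of 0.151 and 95% bounds of -0.53 and 0.16 (edgeR adjusted p = 0.991). NID2 (ENSG00000087303) was at 8.80, 15.9 and 14.6 CPM in AEBP1 siRNA 1, 2 and 3, against 13.9, 16.2 and 15.2 CPM in scrambled 1, 2 and 3. For NID2 AEBP1 siRNA 1 alone lay below the scrambled libraries, while for NID1 both AEBP1 siRNA 1 and AEBP1 siRNA 2 did. The log2 fold change of NID2 was -0.20, with an SE of 0.219 and 95% bounds of -0.71 and 0.30 (edgeR adjusted p = 0.991). Without AEBP1 siRNA 1 the estimates were -0.0366 for NID1 and 0.0153 for NID2, and without replicate 3 of both arms they were -0.342 and -0.286. NID2 made up 6.23% to 8.41% of the counts of both in the AEBP1 siRNA libraries and 6.98% to 7.44% in the scrambled libraries.

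**Figure D3:**
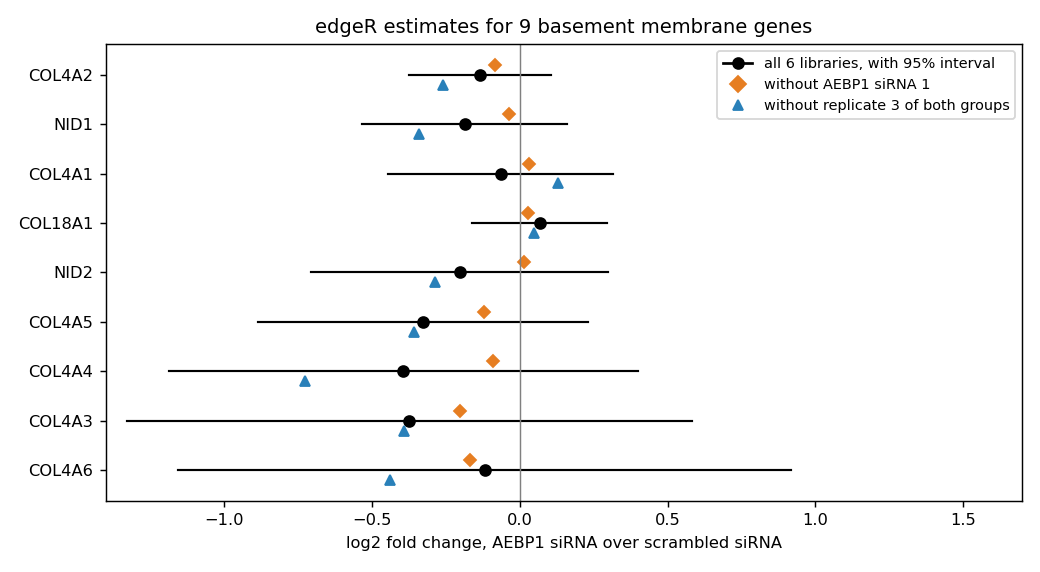
edgeR log2 fold changes of AEBP1 siRNA over scrambled siRNA for 9 genes, ordered by FPKM, with 95% intervals (black), and the estimates without AEBP1 siRNA 1 (orange) or without replicate 3 of both arms (blue); COL15A1, with 0 counts in 2 libraries, is not drawn. All 9 intervals cover 0, and without AEBP1 siRNA 1 the estimates of NID1, NID2 and COL4A4 are -0.0366, 0.0153 and -0.0913.

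Without AEBP1 siRNA 1 the estimates of COL4A1 and NID2 changed sign. Those of COL4A2, COL4A3, COL4A4, COL4A5 and NID1 remained negative but were smaller in size. Those of COL4A6 and COL15A1 moved further down, to -0.169 and -1.13. Most of the genes were at their lowest in AEBP1 siRNA 1. Of the 9 genes with counts in every library, 7 had their lowest level there, and their median was -0.436 on the log2 scale relative to the mean of the 6 libraries, where in the 5 other libraries it was between 0.051 and 0.209. COL4A4, NID2 and COL4A5 were furthest down there, at -1.05, -0.65 and -0.67. COL18A1 went the other way at 0.112, its highest value, and COL4A6 was at 0.071. These genes have long transcripts, and level followed transcript length in this library. The length implied by counts and FPKM was 5.13 to 11.4 kb for the 9 genes other than COL4A3. Over genes that averaged 5 CPM or more, the median in AEBP1 siRNA 1 was 0.297 for 2088 genes under 2 kb, 0.057 for 5717 genes of 2 to 5 kb and -0.285 for 3250 genes of 5 kb or more, of which 76.4% were lowest in this library. In the other libraries the medians of these classes lay between -0.121 and 0.096. The part of transcript length in the estimates of the 10 genes was not tested.

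**Figure D4:**
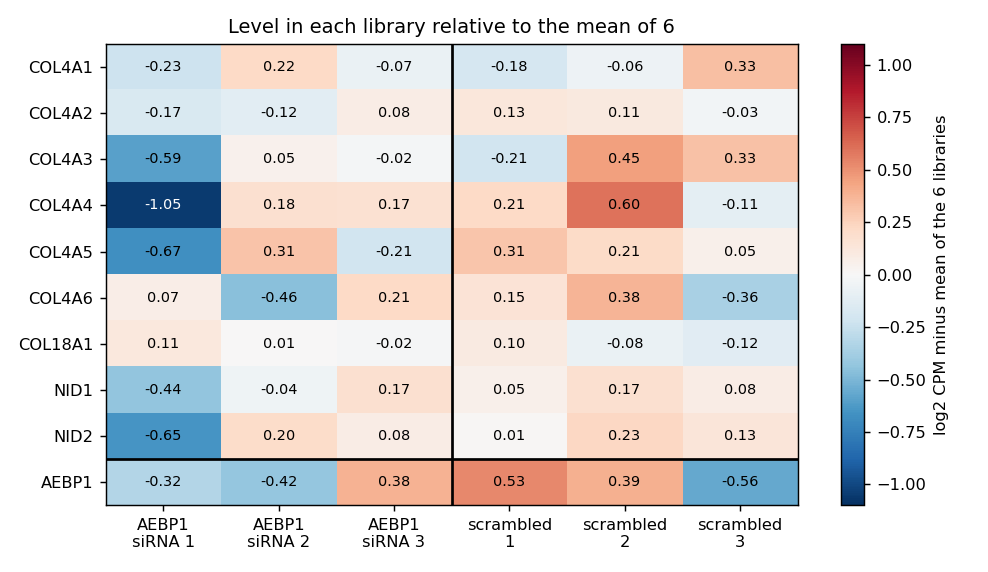
Level of 9 genes and AEBP1 in each library as log2 CPM minus the mean of the 6 libraries, AEBP1 siRNA left of the line and scrambled siRNA right of it. AEBP1 siRNA 1 holds the lowest value of 7 of the 9 genes, down to -1.05 for COL4A4, and COL18A1 reaches its highest value of 0.112 there.

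**Figure D5:**
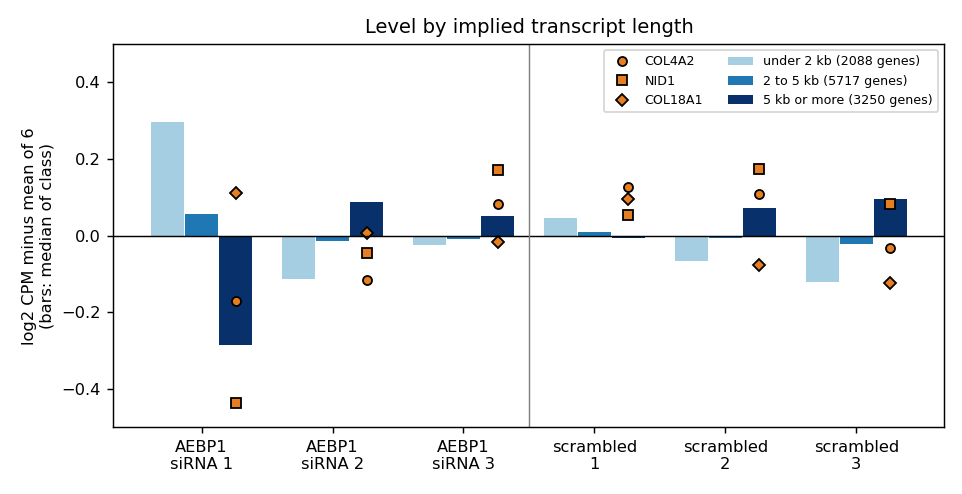
Median log2 CPM minus the mean of the 6 libraries for genes in 3 classes of implied transcript length (bars), with COL4A2, NID1 and COL18A1 as points, AEBP1 siRNA left of the line and scrambled siRNA right of it. In AEBP1 siRNA 1 the class of 5 kb or more is at -0.285, with NID1 at -0.436 below it and COL18A1 at 0.112 above it.

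Among the partners of these genes in the basement membrane, edgeR called 0 genes in any of 5 companion lists. The same held without AEBP1 siRNA 1 or without replicate 3 of both arms. Over all genes these 3 fits called 1 of 16250, 1 of 16660 and 1 of 16285, so that a count of 0 says little about the partners. Laminins are the trimers that start the assembly of a basement membrane. Of 12 laminin chains 11 were tested, all 11 with estimates below 0 and with a median of -0.151, and 8 of the 11 were lowest in AEBP1 siRNA 1. Without that library 6 of the 11 estimates were below 0 and the median was -0.012, and without replicate 3 of both arms all 11 were below 0 with a median of -0.24. LAMC1, the chain found in most laminins and the partner that nidogen binds, was at 221, 322 and 366 CPM in AEBP1 siRNA 1, 2 and 3, against 337, 349 and 332 CPM in scrambled 1, 2 and 3, so that AEBP1 siRNA 1 again stood below the rest, and its log2 fold change was -0.16, or 0.0199 without AEBP1 siRNA 1. LAMB2 was at 261 CPM ± 13.3 in the AEBP1 siRNA libraries and 267 CPM ± 10.1 in the scrambled libraries (SD, n = 3 each). LAMB1, LAMA1 and LAMA3 had log2 fold changes of -0.14, -0.15 and -0.20. Of the other basement membrane components 13 of 17 were tested, 5 with estimates above 0 and 8 below, with a median of -0.055. The median was -0.042 without AEBP1 siRNA 1 and -0.128 without replicate 3 of both arms. Agrin (AGRN), a heparan sulfate proteoglycan, was at 340 CPM ± 25 in the AEBP1 siRNA libraries and 353 CPM ± 7.51 in the scrambled libraries (SD, n = 3 each). SPARC, which binds type IV collagen, was at 582 CPM ± 52.9 in the AEBP1 siRNA libraries and 606 CPM ± 25.3 in the scrambled libraries (SD, n = 3 each).

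Hemicentin 1 (HMCN1), a large matrix protein of basement membrane junctions, was the companion with the smallest unadjusted p, 0.024. It was at 0.662, 1.04 and 1.11 CPM in AEBP1 siRNA 1, 2 and 3, against 1.56, 1.75 and 1.73 CPM in scrambled 1, 2 and 3, without overlap. Its log2 fold change was -0.84 and its edgeR adjusted p 0.991, so that it did not pass the threshold. HMCN1 was picked as the smallest p among the tested genes of 82 companions. Over all genes tested, 1.33% had an unadjusted edgeR p under 0.05 and 5.93% had arms that did not overlap. FRAS1 and FREM2, which act together beneath embryonic epithelia, had log2 fold changes of -0.63 and 0.95 at means under 1 CPM in both arms.

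All 21 genes of collagen IV processing and export were tested, 11 with estimates above 0 and 10 below, with a median of 0.0. Without AEBP1 siRNA 1 there were 4 above and 17 below, with a median of -0.036. Without replicate 3 of both arms there were 11 above and 10 below, with a median of 0.015. P4HB, a subunit of the prolyl hydroxylase that stabilises the triple helix, was at 426 CPM ± 49.6 in the AEBP1 siRNA libraries and 396 CPM ± 8.68 in the scrambled libraries (SD, n = 3 each). Peroxidasin (PXDN), which forms the sulfilimine bonds between type IV collagen ends, was at 294 CPM ± 62.6 in the AEBP1 siRNA libraries and 328 CPM ± 29.1 in the scrambled libraries (SD, n = 3 each), with a log2 fold change of -0.16. SEC23A and SEC24D belong to the COPII coat that carries procollagen out of the endoplasmic reticulum. SEC24D was at 26.8, 29.3 and 51.3 CPM in AEBP1 siRNA 1, 2 and 3, against 51.1, 57.4 and 29.1 CPM in scrambled 1, 2 and 3. Its 3 low libraries were those in which AEBP1 and COL4A2 were lowest, and how many of all genes share this split was not counted. AEBP1 siRNA 1, AEBP1 siRNA 2 and scrambled 3 also scored -1.99, -34.1 and -26 on the second principal component (21.4% of the variance). The other libraries scored 14.3 to 30 on it. Between the labelled arms the log2 fold change of SEC24D was -0.36 (edgeR adjusted p = 0.991). It was -0.95 without replicate 3 of both arms (edgeR adjusted p = 0.32), which was left out for its AEBP1 level. SEC23A had a log2 fold change of -0.20 and arms that did not overlap, as 5.93% of all genes tested had. PLOD2, a lysyl hydroxylase, had a log2 fold change of -0.15.

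Among 16 basement membrane receptors, all tested, 5 had estimates above 0 and 11 below, with a median of -0.022. Without AEBP1 siRNA 1 there were 12 above and 4 below, with a median of 0.031. Without replicate 3 of both arms there were 4 above and 12 below, with a median of -0.05. ITGB1, the beta subunit of most collagen and laminin receptors, was at 848 CPM ± 61.7 in the AEBP1 siRNA libraries and 857 CPM ± 24.0 in the scrambled libraries (SD, n = 3 each). ITGA1, the alpha subunit of the integrin that prefers type IV collagen, was at 23.8, 42.5 and 37.2 CPM in AEBP1 siRNA 1, 2 and 3, against 39.6, 39.6 and 42.2 CPM in scrambled 1, 2 and 3. DDR2, a collagen receptor kinase, had a log2 fold change of -0.19, ITGA3 of -0.05, and BCAM, a laminin receptor, of 0.09. Of 16 proteases and inhibitors 12 were tested, 6 with estimates on each side of 0 and a median of -0.017. Without AEBP1 siRNA 1, 5 were above and 7 below, with a median of -0.016. Without replicate 3 of both arms 2 were above and 10 below, with a median of -0.171. Cathepsin L (CTSL), which releases endostatin from collagen XVIII, was at 167 CPM ± 26.1 in the AEBP1 siRNA libraries and 157 CPM ± 12.0 in the scrambled libraries (SD, n = 3 each). TIMP2, an inhibitor of matrix metalloproteinases, was at 190 CPM ± 22.5 in the AEBP1 siRNA libraries and 200 CPM ± 26.1 in the scrambled libraries (SD, n = 3 each). CTSS, HTRA1 and ADAMTS1 had log2 fold changes of -0.26, 0.18 and -0.13, all with edgeR adjusted p = 0.991.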

How the data were processed

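RNA was sequenced from 6 LX-2 libraries made from 1 μg of total RNA each, 3 per arm. The authors deposited raw counts and FPKM per gene, per the file headers. Reads were mapped to hg19, per the submitters' processing notes. How reads were aligned and counted, with which annotation and strand setting, the sources used here do not say. Whether reads of the antisense genes that RefSeq lists at COL4A2, COL15A1 and COL18A1 were counted with these genes is therefore not known. Of the table, 24789 rows held values, 4815 of them assembled loci, and 17 lines without values were left out.

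Members and lists were chosen with earlier results of these data known. Counts were filtered with filterByExpr, scaled by trimmed mean of M values and fitted in edgeR 4.0.16 (R 4.3.3) by quasi-likelihood, the model holding the group alone. P-values were adjusted over 16250 genes after Benjamini and Hochberg. Standard errors follow from each estimate and the root of its F statistic. CPM give counts per 1000000 of the scaled library size. Implied length is counts per 1000000 of the library total over FPKM. Named were the 10 genes, AEBP1, and per companion list the 3 genes with the smallest unadjusted p and the 2 most abundant. For likeness, genes averaging 5 CPM or more were ranked by the root mean square difference of centred log2 CPM. The pairs of libraries had counts that differed by more than sampling noise, but separate cultures are not stated and p-values measure only the spread between these samples. Promoter sequences are from RefSeq, where 10 of the 10 genes had a window. Alternatives used DESeq2 1.42.0 and limma 3.58.1, among others.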

Additional observations from a re-analysis of the deposited data

How the results depend on the processing

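Under 18 alternatives 0 of the 10 genes followed here were called. All 10 were tested in 17 of these. A filter on means below 5 CPM tested 6 and left COL4A3, COL4A4, COL4A6 and COL15A1 untested. Their smallest adjusted p was 0.856, reached by COL4A1 among others in the edgeR fit without AEBP1 siRNA 2. This leaves aside the fit without replicate 3 of both arms and AEBP1 siRNA 1. Over all genes, against 1 called, 249 were called in that fit, which has a single AEBP1 siRNA library assumed to vary like the other arm, 6 by DESeq2, 3 with no filter, 3 by limma on log2(FPKM + 0.1), 2 by limma-voom and 0 at an adjusted p under 0.01. A replicate block gave 2 genes, and leaving out single libraries gave 0 to 2. Replicate numbers gave no sign of pairing, with correlations of deviations of 0.0961, -0.00776 and -0.102 for numbers 1, 2 and 3. Estimates that changed sign were COL4A1 at 0.0312 without AEBP1 siRNA 1, 0.101 without scrambled 3, 0.129 without replicate 3 of both arms and 0.336 without these and AEBP1 siRNA 1, where COL4A5 was at 0.0533, COL18A1 at -0.00341 and NID2 at 0.079. NID2 was at 0.0153 without AEBP1 siRNA 1. COL4A6 was at 0.0552 and 0.0527 without AEBP1 siRNA 2 and scrambled 2. COL15A1 was at 0.237 without AEBP1 siRNA 2, 0.359 without scrambled 3 and 0.253 without replicate 3 of both arms. For these the cause was not tested. Without single libraries the estimates of COL4A1 ran from -0.197 to 0.101, of COL4A6 from -0.297 to 0.0552, of COL15A1 from -1.13 to 0.359 and of NID2 from -0.366 to 0.0153. AEBP1 kept its direction, at -0.066 to -0.567 without single libraries, and -0.884 in the 3-library fit, where its adjusted p of 0.00536 is no independent test, since replicate 3 was left out for its AEBP1 level. Refits of the companion genes without AEBP1 siRNA 1 and without replicate 3 of both arms were added after seeing the data. Among the companions named above, the sign changed without AEBP1 siRNA 1 for LAMB2 (0.00856), LAMC1 (0.0199), ITGA3 (0.0127), ITGB1 (0.0411), DDR2 (0.00321) and CTSL (-0.0414). Companions that were not named changed sign there as well, among them LAMA5 (0.069) and PPIB (-0.034). At 12 to 38 counts a library for COL4A3 and COL4A6 and 0 to 32 for COL15A1, changes were not detectable within their wide intervals.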

Other observations

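For each of the 6 genes that averaged 5 CPM or more, the genes whose levels over the 6 libraries were most like its own were looked up among 11049 annotated genes, as a description. The nearest to COL4A1 included ZNF33A and LYRM7, with root mean square differences of 0.0266 and 0.0316 in centred log2 CPM. ZNF33A was at 34.5, 46.9 and 36.5 CPM in AEBP1 siRNA 1, 2 and 3, against 34.6, 38.4 and 50.3 CPM in scrambled 1, 2 and 3, high in AEBP1 siRNA 2 and scrambled 3 as COL4A1 was. Those nearest to COL4A2 were PPT2, ING3 and RNF20 (0.0184, 0.0199 and 0.0213). NID1 was nearest to DNMBP, C2CD3 and APBB2, and NID2 to ERCC6L2, ANKRD50 and RANBP2, which all had their lowest level in AEBP1 siRNA 1. Such shared high and low libraries follow from choosing genes by likeness over the same 6 libraries. COL18A1 was nearest to UBE2D2, GPN1 and TFPI2, and COL4A5 to STXBP4, RTKN2 and B3GNT10. TFPI2, a protease inhibitor of the matrix, was at 81.5, 77.2 and 75.2 CPM in AEBP1 siRNA 1, 2 and 3, against 78.5, 70.9 and 69.4 CPM in scrambled 1, 2 and 3.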
